A study of Rattus norvegicus with 12 samples.

Results

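The genes described here are 10 named factors and target genes of the Hippo pathway: the coactivators Yap1 and Wwtr1, the DNA-binding partners Tead1 and Tead4, the kinases Lats1 and Lats2, the scaffold genes Amotl2 and Ajuba, and the secreted-protein genes Ctgf and Cyr61. They were taken by symbol from a probe-to-gene table, in which Ctgf and Cyr61 carry their newer symbols Ccn2 and Ccn1. A probe set with a single matching symbol was found for 8 of the 10, 1 probe set each, among 14497 genes with such a probe set. Tead4 and Lats1 were not analysed here. All 8 lay above the filter on dim probe sets, so all were among the 10025 genes tested.

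Expression was measured on 12 Affymetrix arrays in cultured ventricular cardiomyocytes of newborn Wistar rats, in 4 groups of 3 arrays. One group was untreated (control). Adenovirus carried mef2Cγ+ in the next (called γ+ here), mef2Cγ- in another (γ-) and mef2Cγ+23/24 in the last (23/24), a form that the design text writes as mef2Cγ+-23/24 and that the labels do not define further. All cultures had been plated for 44 h in medium with serum and then kept for 24 h without serum. No group received a virus without insert, so a difference from control includes any effect of the virus itself. The labels call the arrays biological replicates without saying whether they came from separate isolations, so the p-values measure the spread between these samples, which may be technical. The level of Mef2c, endogenous or viral, was not analysed here.

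In the Hippo pathway, the MST kinases with the adaptor Sav1 activate the LATS kinases with the MOB1 adaptors, and LATS phosphorylates the coactivators YAP (Yap1) and TAZ (Wwtr1), which are then held in the cytoplasm or degraded. Free YAP and TAZ enter the nucleus and act through the TEAD proteins, which bind DNA. Ctgf, Cyr61, Ankrd1 and Amotl2 are classical targets. In the heart the pathway is known for restraining cardiomyocyte proliferation and heart size, and serum is a known activator of YAP. Pathway activity is set largely by phosphorylation and location of YAP and TAZ, which an expression array does not measure.

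The values are the authors' deposited values, taken as log2, so a difference of 1 is a doubling if that scale is right. The SD of the difference between arrays of the same group was 0.12 to 0.24 over the tested genes. The upper end belonged to γ+ replicate 2, at 0.24 from each other γ+ array, and no pair in the other groups exceeded 0.164. The arrays form 3 sets by exactly equal values: control with 23/24, γ+ alone and γ- alone. Such values occurred in 21 of 21 pairs of arrays from the same set and in 0 of 45 pairs from different sets. The 23/24 group against control is therefore the one comparison that did not cross what look like separate normalization runs. No label names such runs; if they exist, run and group cannot be told apart in the other comparisons. Cardiomyocyte markers were present in every group, as given with the marker lists.

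Among the 8 genes, the γ+ form went with lower levels of Ctgf, Cyr61, Amotl2, Wwtr1 and Lats2, and with a higher level of Yap1. Against control, 5 of the 8 fell (Ctgf, Cyr61, Wwtr1, Amotl2 and Lats2) and 1 rose (Yap1), at an adjusted p under 0.05 in limma's moderated test over all 10025 genes. Of all genes tested, 38.7% fell and 26.2% rose in that comparison, 64.9% in all. Most genes thus moved between these groups, and 6 of 8 is close to that background. A test for any difference among the 4 groups called the same number, 6 of 8 (all but Tead1 and Ajuba), beside 70.3% of all genes. In size, Ctgf stood apart from the others: it fell by 1.96 log2, and 0.968% of all tested genes changed by more in either direction. The corresponding share was 21.1% for Cyr61, 27.2% for Wwtr1, 44.1% for Amotl2, 49.0% for Lats2 and 59.2% for Yap1.

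**Figure D1:**
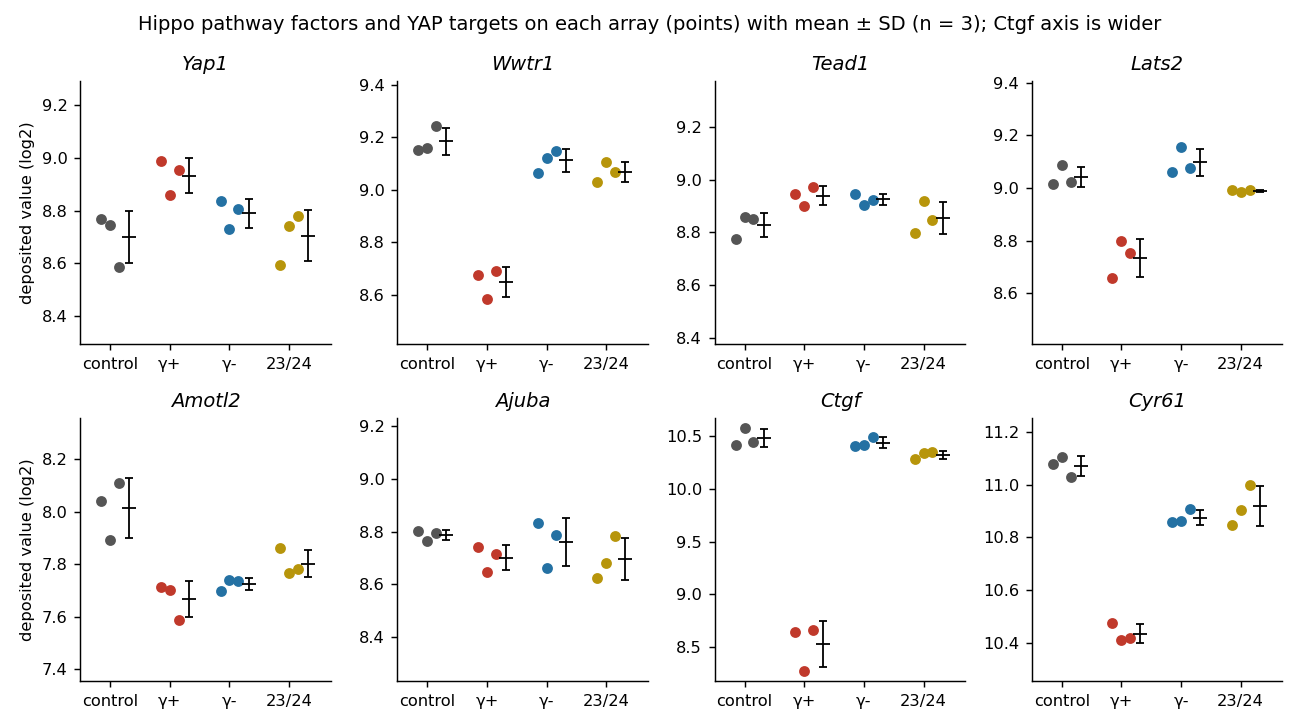
Deposited log2 value of each gene (vertical axis) on each of the 12 arrays, with the 4 groups on the horizontal axis; points are arrays and bars are the mean ± SD of 3 arrays. The vertical axes span 1 log2 unit, except the wider one of Ctgf. The 3 γ+ arrays of Ctgf sit between 8.28 and 8.66, below the 9 other arrays at 10.28 to 10.58.

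The coactivators moved in opposite directions. Yap1, which encodes YAP, read 8.77, 8.75 and 8.59 on the control arrays, 8.99, 8.86 and 8.95 in the γ+ group, 8.84, 8.73 and 8.81 in the γ- group and 8.59, 8.74 and 8.78 in the 23/24 group. Every γ+ array lay above every other array, while the other 3 groups overlapped one another. The rise over control was 0.23 ± 0.07 log2 (SE, n = 3 per group), or 17.6%, with a limma adjusted p of 0.00598. This is a small change: in the γ- group against control, 12.9% of all genes differed by at least as much. The mean fell in the order γ+ (8.93 ± 0.07, SD), γ- (8.79 ± 0.06), 23/24 (8.70 ± 0.10) and control (8.70 ± 0.10), and no difference between neighbours in that order passed the test. Against the γ- group the difference was 0.14, with an interval from 0.00 to 0.28 and a limma adjusted p of 0.0733. It passed with the arrays centred on their medians (0.22, limma adjusted p = 0.0347), with quantile normalization (0.18, 0.00993), with array weights (0.17, 0.0045) and without γ+ replicate 2 (0.18, 0.0190).

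Wwtr1, which encodes TAZ, the paralog of YAP, read 9.15, 9.16 and 9.24 in the control, 8.68, 8.58 and 8.69 in the γ+ group, 9.07, 9.12 and 9.15 in the γ- group and 9.03, 9.10 and 9.07 in the 23/24 group. The γ+ arrays were the 3 lowest, and the γ- and 23/24 arrays all lay below the lowest control array, without passing the test. It fell by 0.53 ± 0.05 log2 (SE) in the γ+ group, which is a change of -31.0%, with a limma adjusted p of 2.20e-07. The γ- group differed from control by -0.07 ± 0.05 and the 23/24 group by -0.12 ± 0.05, with limma adjusted p of 0.458 and 0.547. In the γ- group against control, 0.648% of genes changed by as much as Wwtr1 did in the γ+ group. From control through γ- to 23/24 no step between neighbours passed the test, and the step down to γ+ passed (-0.42 against the 23/24 group, limma adjusted p = 4.05e-06).

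Tead1, a member of the TEAD family, which binds the MCAT elements of cardiac muscle promoters, gave no difference that passed in any of the 6 comparisons. It read 8.77, 8.86 and 8.85 in the control, 8.94, 8.90 and 8.97 in the γ+ group, 8.95, 8.91 and 8.92 in the γ- group and 8.80, 8.92 and 8.85 in the 23/24 group. The γ+ and γ- arrays all lay above the control arrays, and the 23/24 arrays overlapped both. Against control the difference was 0.11 ± 0.05 (SE) for γ+, 0.10 ± 0.05 for γ- and 0.03 ± 0.05 for 23/24, with limma adjusted p of 0.0746, 0.285 and 0.916. The γ+ difference depended on the scaling: with the arrays centred on their medians it was 0.20 (limma adjusted p = 0.0167) and with quantile normalization 0.15 (0.0102). It also passed with array weights (0.13, 0.0147) and without γ+ replicate 2 (0.13, 0.0273).

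Lats2, the kinase that phosphorylates YAP and TAZ and is itself induced by them, read 9.02, 9.09 and 9.02 in the control. The other arrays read 8.66, 8.80 and 8.75 in the γ+ group, 9.06, 9.16 and 9.08 in the γ- group, and 8.99, 8.98 and 8.99 in the 23/24 group. The γ+ arrays were again the 3 lowest. The difference from control was -0.31 ± 0.05 log2 (SE), a change of -19.1%, with a limma adjusted p of 1.09e-04; in the γ- group against control, 6.27% of genes changed by as much. The γ- group was the highest, at 9.10 ± 0.05 (SD), followed by control at 9.04 ± 0.04 and 23/24 at 8.99 ± 0.00, and none of the differences among these passed the test, although all 23/24 arrays lay below all control and γ- arrays. The γ+ group differed from the 23/24 group by -0.25 (limma adjusted p = 6.06e-04), and by -0.12 (adjusted p = 0.132) with the arrays centred on their medians.

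The 2 scaffold genes differed from each other. Amotl2, an angiomotin-like protein of cell junctions that binds YAP and is also one of its targets, read 8.04, 7.89 and 8.11 in the control. It read 7.71, 7.70 and 7.59 in the γ+ group, 7.70, 7.74 and 7.73 in the γ- group and 7.86, 7.77 and 7.78 in the 23/24 group. All 9 arrays with virus lay below the control arrays, whose own spread was the widest (SD 0.11). The difference from control was -0.35 ± 0.07 log2 (SE) in the γ+ group and -0.29 ± 0.07 in the γ- group, with limma adjusted p of 2.39e-04 and 0.0182, and -0.21 ± 0.07 in the 23/24 group, where it did not pass (0.375). The groups ran from control down through 23/24 and γ- to γ+, and no difference between neighbours passed the test. The control and 23/24 arrays did not overlap, nor did the 23/24 and γ- arrays, while the γ- and γ+ arrays did.

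Ajuba, a LIM protein that binds and restrains the LATS kinases, gave no difference that passed in any of the 6 comparisons. It read 8.80, 8.76 and 8.80 in the control, 8.74, 8.65 and 8.72 in the γ+ group, 8.83, 8.66 and 8.79 in the γ- group and 8.62, 8.68 and 8.78 in the 23/24 group. The γ+ arrays lay just below the control arrays, and all other pairs of groups overlapped. The γ+ difference from control was -0.09 with an interval from -0.21 to 0.04 (limma adjusted p = 0.229). The 23/24 difference was also -0.09, with an interval from -0.22 to 0.04 (limma adjusted p = 0.69). The γ- difference was -0.03 with an interval from -0.15 to 0.10 (limma adjusted p = 0.849).

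Ctgf and Cyr61, which encode secreted matrix-associated proteins of the CCN family, are the genes most often read as a sign of YAP and TAZ activity. Both fell in the γ+ group, Ctgf far more than Cyr61. The stretches of 250 bases before their RefSeq transcription starts are shown, with those of Amotl2 and Ajuba, because each holds the core of the TEAD binding site. The core searched for was CATTCC on both strands (GGAATG when it lies on the opposite strand), and it is in capitals. Coordinates are on GRCr8, for Ctgf chr1:22624615-22624864 (minus strand), for Cyr61 chr2:237225690-237225939 (minus strand), for Amotl2 chr8:112182376-112182625 (plus strand) and for Ajuba chr15:32000043-32000292 (minus strand), each lying just upstream of the gene, and the sequences run 5′ to 3′ on the gene's strand.
Ctgf: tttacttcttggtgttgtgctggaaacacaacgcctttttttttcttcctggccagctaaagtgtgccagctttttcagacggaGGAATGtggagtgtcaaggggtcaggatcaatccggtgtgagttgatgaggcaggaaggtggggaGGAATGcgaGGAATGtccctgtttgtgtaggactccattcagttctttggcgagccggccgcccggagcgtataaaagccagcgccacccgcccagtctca
Cyr61: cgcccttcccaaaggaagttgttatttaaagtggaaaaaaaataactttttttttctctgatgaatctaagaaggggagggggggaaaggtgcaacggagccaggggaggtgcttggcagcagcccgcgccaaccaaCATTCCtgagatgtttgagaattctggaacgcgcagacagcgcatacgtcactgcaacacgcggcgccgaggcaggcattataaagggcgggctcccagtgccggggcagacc
Amotl2: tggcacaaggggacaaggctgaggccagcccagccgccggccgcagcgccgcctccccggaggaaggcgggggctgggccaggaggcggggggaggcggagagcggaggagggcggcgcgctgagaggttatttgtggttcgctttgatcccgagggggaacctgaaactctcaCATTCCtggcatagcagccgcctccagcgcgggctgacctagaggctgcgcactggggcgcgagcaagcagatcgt
Ajuba: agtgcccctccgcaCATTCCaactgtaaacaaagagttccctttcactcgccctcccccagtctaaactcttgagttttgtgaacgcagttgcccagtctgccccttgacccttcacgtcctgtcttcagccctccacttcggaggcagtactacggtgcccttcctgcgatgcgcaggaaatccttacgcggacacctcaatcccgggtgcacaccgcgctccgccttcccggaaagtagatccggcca
The Ctgf stretch holds 3 cores, starting 166, 101 and 92 bases before the start, and those of Cyr61, Amotl2 and Ajuba hold 1 each, 113, 76 and 236 bases before it. Yap1 also has 1, at 116, and Wwtr1 has none. A promoter was matched for 6 of the 8 genes; none was matched for Tead1 and Lats2. Among 33469 RefSeq promoters of the same length, 12.1% hold at least 1 core and 0.0807% (27 promoters) hold 3 or more. The MEF2 consensus and the CArG box, the binding site of serum response factor, were searched in the same way on both strands and matched in none of the 6, where 2.96% and 1.5% of all promoters hold them. A match is a string of letters and not a measured binding site, and no match says only that these letters are not in this window.

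**Figure D2:**
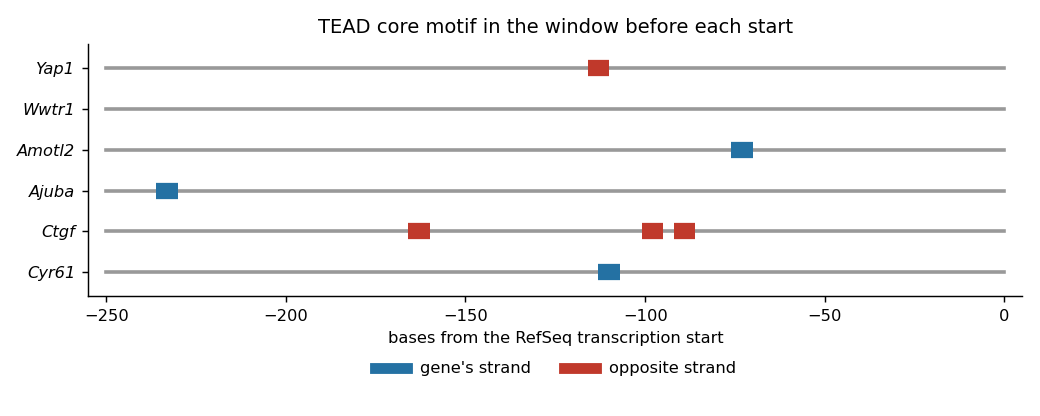
Position of the TEAD core motif in the 250 bases before the RefSeq transcription start (horizontal axis, bases from the start) of the 6 genes with a matched promoter (rows); blue marks the gene's strand and red the opposite strand. Ctgf carries 3 cores and Wwtr1 none.

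Calls among genes with the motif were counted as well. Of 8770 tested genes with a matched promoter, 37.9% fell and 26.9% rose in the γ+ group against control. Among the 869 with at least 1 TEAD core, 42.2% fell and 21.5% rose. Of the 55 with at least 2, 41.8% fell and 12.7% rose, and of the 8 with 3 or more, Ctgf included, 5 fell and 1 rose. These counts are a description with no test.

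Ctgf read 10.42, 10.58 and 10.45 on the control arrays, 8.65, 8.28 and 8.66 in the γ+ group, 10.41, 10.42 and 10.5 in the γ- group and 10.28, 10.34 and 10.35 in the 23/24 group. The γ+ arrays stood far below every other array, the lowest being replicate 2, while control and γ- arrays overlapped. It fell by 1.96 ± 0.08 log2 (SE, n = 3 per group), to 25.8% of the control level, with a limma adjusted p of 5.14e-12. The difference was between -2.02 and -1.83 when each array of the 2 groups was left out in turn. No gene of the 10025 changed by as much in the γ- group against control. The γ- difference from control was -0.04 with an interval from -0.22 to 0.13 (limma adjusted p = 0.816), and the 23/24 difference -0.16 with an interval from -0.33 to 0.02 (0.589).

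Cyr61 read 11.08, 11.11 and 11.03 in the control, 10.48, 10.41 and 10.42 in the γ+ group, 10.86, 10.86 and 10.91 in the γ- group and 10.85, 10.90 and 11.00 in the 23/24 group. All 9 arrays with virus lay below the control arrays, and the γ+ arrays lay below all others. It fell by 0.64 ± 0.05 log2 (SE) in the γ+ group, which is a change of -35.7%, with a limma adjusted p of 7.85e-09. In the γ- group it fell by 0.20 ± 0.05, a change of -12.7% (limma adjusted p = 0.0264). The 23/24 difference was -0.15 ± 0.05 with an interval from -0.26 to -0.05, and did not pass (limma adjusted p = 0.375). The order was control (11.07), 23/24 (10.92), γ- (10.87) and γ+ (10.43), in which the last step passed the test (-0.44, limma adjusted p = 7.02e-07) and the others did not, although the control and 23/24 arrays did not overlap.

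**Figure D3:**
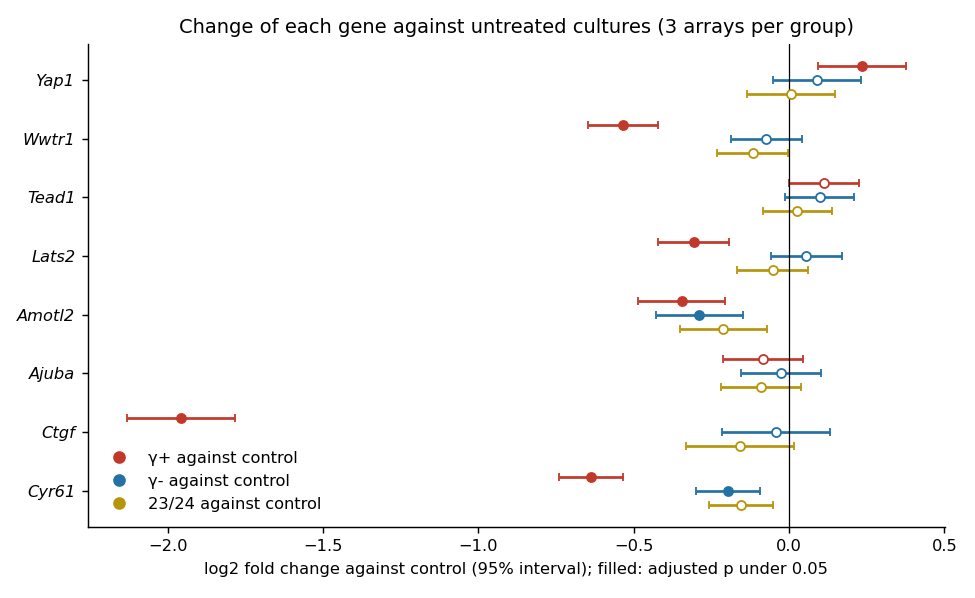
Log2 fold change of each gene (rows) against control for the γ+, γ- and 23/24 groups, 3 arrays per group, with 95% intervals from limma; filled points have an adjusted p under 0.05 over all genes. Ctgf in the γ+ group lies at -1.96, and the γ- group has filled points for Amotl2 (-0.29) and Cyr61 (-0.20).

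The γ- group against control compares cultures given virus with MEF2C without the γ segment to untreated cultures. Of the 8 genes, 2 fell there (Amotl2 and Cyr61) and 0 rose, where 3.88% of all tested genes fell and 3.06% rose, 6.94% in all. Both calls were narrow. That of Cyr61 was lost without control replicate 1 (limma adjusted p = 0.0814) or 2 (0.0959), or any γ- array (0.0938, 0.0892 and 0.0621 for replicates 1 to 3), with median centring (0.140) and without the intensity trend (0.0569). That of Amotl2 was lost without control replicate 1 (0.0681) or 3 (0.0777), or any γ- array (0.0694, 0.0563 and 0.0578). With single arrays left out the difference lay between -0.22 and -0.18 for Cyr61 and between -0.35 and -0.24 for Amotl2.

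The 23/24 group against control was the comparison within a set of arrays that share equal values. By limma 0 of the 8 genes passed, as did 0 of the 10025 genes (0% in background). At an unadjusted p under 0.05 there were 3 of the 8, Wwtr1, Cyr61 and Amotl2, all lower, and 8.97% of all genes. With array weights Cyr61 (-0.16, limma adjusted p = 0.0261) and Amotl2 (-0.21, 0.0499) passed, among 220 genes in all. For 5 of the 8 genes (Wwtr1, Lats2, Ctgf, Cyr61 and Amotl2) all 23/24 arrays lay below all control arrays, where 12.2% of all tested genes did so. The comparisons with control share the control arrays, so their values are not independent of each other.

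The γ+ form against the γ- form compares MEF2C with and without the γ segment, with virus in both groups. The 2 groups lie in different sets of arrays by equal values, and the level of Mef2c was not analysed. Form, level and a possible run thus cannot be told apart. Of the 8 genes 4 were lower in the γ+ group (Ctgf, Cyr61, Wwtr1 and Lats2) and 0 higher, where 37.5% of all tested genes were lower and 26.7% higher, 64.2% in all. The difference was -1.91 ± 0.08 log2 (SE) for Ctgf, -0.46 ± 0.05 for Wwtr1, -0.44 ± 0.05 for Cyr61 and -0.36 ± 0.05 for Lats2, with limma adjusted p of 7.25e-12, 1.26e-06, 7.02e-07 and 2.04e-05. Amotl2, which fell against control in both groups, differed between them by -0.06 with an interval from -0.20 to 0.08 (limma adjusted p = 0.464).

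Against the 23/24 group, which carries a variant of the same γ+ form, 4 genes were lower in the γ+ group (Ctgf by -1.80, Cyr61 by -0.48, Wwtr1 by -0.42 and Lats2 by -0.25 log2) and Yap1 was higher (0.23 ± 0.07), where 37.9% of all tested genes were lower and 28% higher, 65.8% in all. The limma adjusted p was 1.34e-11 for Ctgf and 0.0068 for Yap1. Centring the arrays on their medians moved the median of all genes in this comparison from -0.07 to 0.07 and its higher calls from 42.5% to 58.5% of calls, which left 3 of the 8 genes lower and 2, Yap1 and Tead1, higher. Against control the same centring moved that share from 40.4% to 51.2% (γ+ group), and the members to 5 lower and 2 higher. Between the γ- and 23/24 groups 0 of the 8 genes passed in limma, where 8.1% of all tested genes did, and 0 had an unadjusted p under 0.05, where 24.5% of all tested genes did. Their differences lay between -0.08 (Amotl2) and 0.12 (Ctgf).

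Counted by arrays that do not overlap, all 8 genes separated the γ+ group from control, beside 66.6% of all tested genes. The count was 4 of 8 for γ- against control (33.4% of all genes), 5 of 8 for 23/24 against control (17.9%), 5 of 8 for γ+ against γ- (67.1%), 6 of 8 for γ+ against 23/24 (67.4%) and 3 of 8 for γ- against 23/24 (36.2%).

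The other genes of the pathway were read from a list of 64 in 5 roles, of which 47 had a probe set and 46 were tested. In the γ+ group against control 25 fell and 9 rose, with a median of -0.30 log2 beside -0.07 over all genes, and 73.9% were called beside 64.9% of all genes. With median centring 21 fell and 12 rose, and with quantile normalization 23 and 12.

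A published signature of YAP and TAZ targets was read without the members described above. Ptpn14, also part of that signature, was counted with the upstream genes instead. It rose by 0.40 ± 0.07 log2 (SE) in the γ+ group against control (named after its value was seen). The remaining list held 17 genes, of which 11 were tested. Of these 8 fell and 1 rose (81.8% called, beside 64.9% of all genes), with a median of -1.18 beside -0.07 over all genes. The cardiomyocyte and fibroblast marker lists described below had medians of -1.24 and -1.49. Ankrd1, a stress-responsive ankyrin repeat protein of cardiomyocytes, changed by -1.91 ± 0.05 log2 (SE) from a control mean of 12.73, close in size to the fall of Ctgf. F3, tissue factor, changed by -1.73 ± 0.08, Ccdc80, a matrix protein, by -1.52 ± 0.06 and Tgfb2, a TGF-β ligand, by -1.18 ± 0.05. The 1 riser among the 11 was Asap1 (0.24, named after its value was seen). All 4 further targets tested were called, with a median of -0.64. Thbs1, which encodes the matrix protein thrombospondin 1, changed by -2.28 ± 0.05, Myc by -0.97 ± 0.06 and Wnt5a by -0.31 ± 0.08, whereas Birc5, the mitotic protein survivin, rose by 1.0 ± 0.07. All of these had a limma adjusted p of at most 0.00702 and no overlap between the γ+ and control values.

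Of 13 core kinases and adaptors, 5 fell and 3 rose (61.5% called, beside 64.9% of all genes), with a median of -0.04. Stk38l, an NDR kinase related to LATS, changed by -1.58 ± 0.10 and the MOB adaptor Mob1b by -0.39 ± 0.09. Map4k2, a kinase that can act on LATS beside the MST kinases, rose by 1.10 ± 0.08 and Taok2 by 0.38 ± 0.07. Of 12 upstream and scaffold genes, 5 fell and 3 rose (66.7%), with a median of -0.12. Nf2, the membrane-linked activator merlin, changed by -0.58 ± 0.06, Frmd6 by -0.64 ± 0.08 and Wwc2 by -0.37 ± 0.06, whereas Rassf1 rose by 0.59 ± 0.07. Of 6 tested nuclear partners, 4 fell and 1 rose (83.3%), with a median of -0.33. Tead2 rose by 0.61 ± 0.07 and Tead3 changed by -0.34 ± 0.09, so the 3 measured TEAD genes did not move as one. Runx1 changed by -0.74 ± 0.09 and Runx2 by -0.57 ± 0.12. Each gene named here had a limma adjusted p of at most 0.00271.

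**Figure D4:**
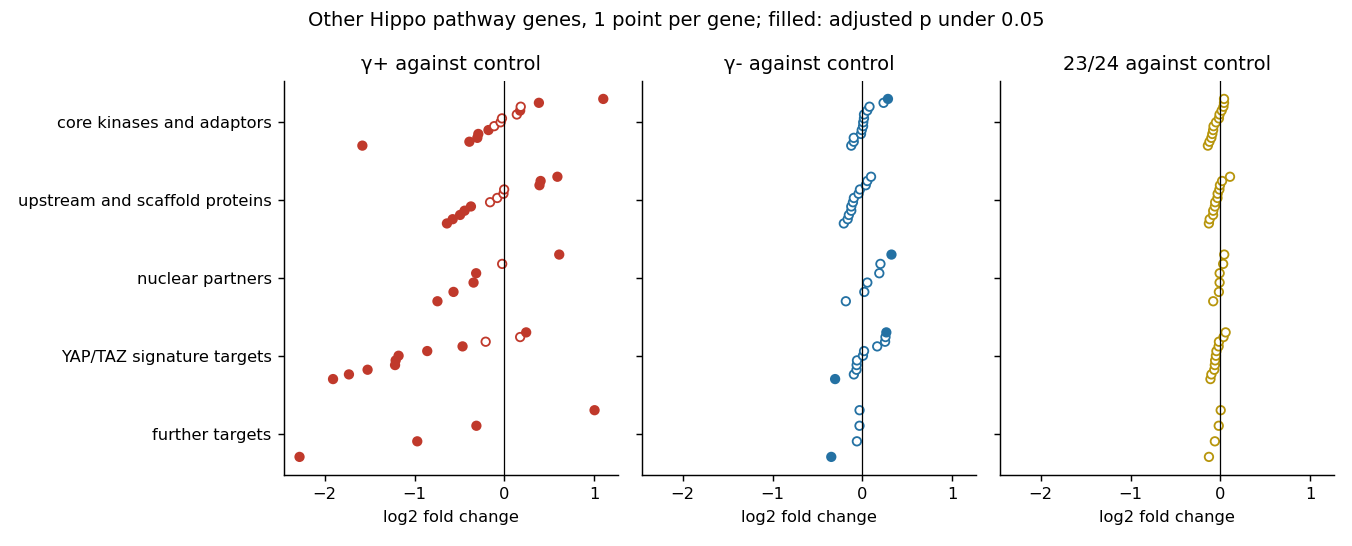
Log2 fold change against control (horizontal axis) of the 46 other tested Hippo pathway genes, 1 point per gene in 5 role groups (rows), for the γ+, γ- and 23/24 groups; filled points have a limma adjusted p under 0.05. The γ+ points reach from -2.28 to 1.10, those of the γ- group from -0.35 to 0.32 and those of the 23/24 group from -0.14 to 0.11.

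In the γ- group 2 of the 46 fell and 3 rose, 10.9% beside 6.94% of all genes. Myc changed by -0.35 ± 0.06 and Igfbp3, a growth factor binding protein, by -0.30 ± 0.06. Smad7, an inhibitor of TGF-β signalling, rose by 0.32 ± 0.09, Taok2 by 0.28 ± 0.07 and Ccdc80 by 0.27 ± 0.06, with limma adjusted p from 0.00566 (Myc) to 0.0432 (Smad7). Ccdc80 rose in this group and fell in the γ+ group, and the difference between the groups was -1.79 ± 0.06 (limma adjusted p = 8.86e-13). Leaving out single arrays of the 2 groups gave 2 or 3 calls over the list. In the 23/24 group 0 of the 46 passed in limma, as did 0% of all tested genes. An unadjusted p under 0.05 was found for 1 of the 46, beside 8.97% of all tested genes. Set against the γ- group, the γ+ group had 25 of the 46 lower and 7 higher, 69.6% called beside 64.2% of all genes. Set against the 23/24 group it had 24 lower and 11 higher, 76.1% beside 65.8%. Between the γ- and 23/24 groups 6 were higher and 2 lower in the γ- group, 17.4% beside 8.1%, and that count of 8 fell to between 0 and 3 when any single array of these groups was left out.

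Markers of the cell types that such cultures can hold moved in the γ+ group against control, where 38.7% of all tested genes fell and 26.2% rose. All 10 cardiomyocyte markers fell in the γ+ group (median -1.24), and their summed level, as log2 of the sum of linear values, was 14.71 to 14.75 there and 15.70 to 15.75 in the control. Fibroblast markers fell as well, 10 of 10, with a median of -1.49 and a summed level of 11.72 to 11.83 beside 13.27 to 13.31. Of the smooth muscle and pericyte markers 6 of 6 fell (13.43 to 13.50 beside 14.16 to 14.19), of the endothelial markers 7 of 7 (8.41 to 8.55 beside 9.24 to 9.28) and of 6 tested macrophage and leukocyte markers 4 (9.24 to 9.36 beside 9.75 to 9.81, with Ptprc and C1qa under the filter). The share called among the macrophage and leukocyte markers, 66.7%, was close to the 64.9% of all tested genes. No other measured marker lay under the filter, and Mki67 and Vwf were not analysed here. All 5 proliferation markers rose (12.09 to 12.29 beside 10.99 to 11.03), as did all 6 interferon response genes (11.45 to 11.52 beside 9.30 to 9.42). Ctgf, Cyr61, Thbs1 and Ccdc80 are expressed by fibroblasts as well as by cardiomyocytes, Ankrd1 mainly by the latter. The part of cell composition, proliferation and the antiviral response in the changes of the Hippo genes was not tested. In such bulk samples fewer cells of a type and less RNA per cell cannot be told apart.

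In the γ- group the lists also held calls, where 6.94% of all tested genes were called. Of 6 macrophage and leukocyte markers 3 were lower (summed level 9.58 to 9.66), of 7 endothelial markers 2 (9.05 to 9.13) and of 6 smooth muscle and pericyte markers 1 (14.17). The summed fibroblast level was 13.17 to 13.19, with 1 of 10 lower, the cardiomyocyte level 15.74 to 15.75, with 2 of 10 higher, and the interferon level 9.60 to 9.71, with 2 of 6 higher. In the 23/24 group 0 genes of any of these lists passed, and the summed levels were 13.24 to 13.33 for fibroblasts, 15.72 to 15.76 for cardiomyocytes and 9.45 to 9.62 for the interferon genes. The endothelial level was 9.12 to 9.16 there, below the control range of 9.24 to 9.28. All 7 endothelial markers had a lower mean than in control, and 5 did not overlap it, beside 17.9% of all tested genes. The interferon level there lay above the control range of 9.30 to 9.42. Of the 6 interferon genes 3 did not overlap control, and 1 had a lower mean than in control.

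**Figure D5:**
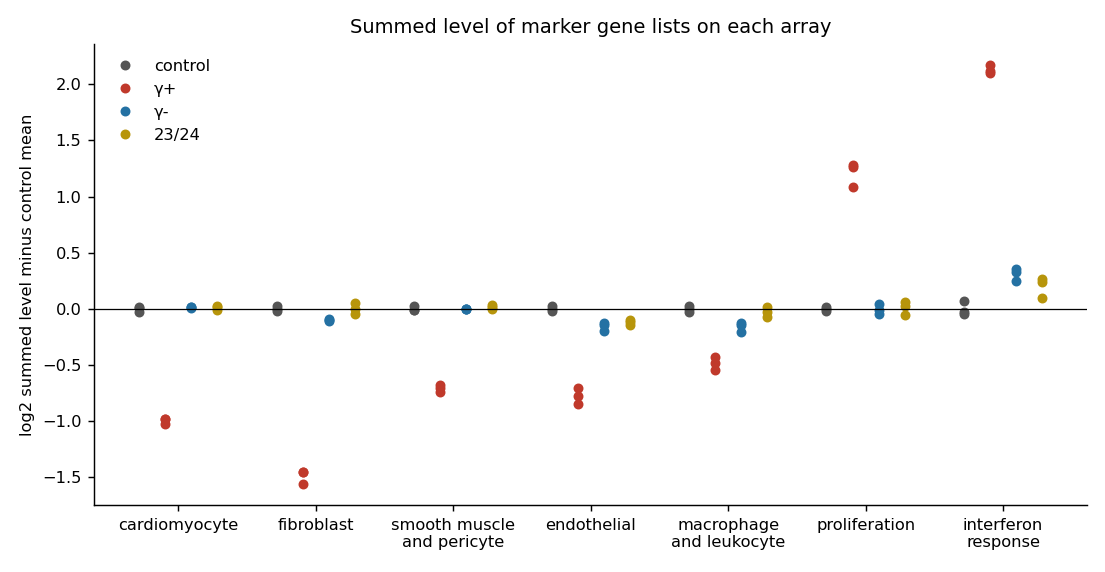
Summed level of 7 marker lists on each array, as log2 of the summed linear values minus the control mean (vertical axis); points are arrays, coloured by group. The γ+ arrays lie below the control for the 5 cell type lists and above it for the proliferation and interferon lists.

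The genes whose values ran most like those of 3 members over the 12 arrays were found by Pearson's r, as a description. The arrays fall into the γ+ arrays and the rest, so r mostly reflects that step. Nearest to Ctgf were Sln, which encodes sarcolipin (r = 0.997, γ+ against control -2.86), the taurine transporter Slc6a6 (0.997, -1.43) and Ilk, the integrin-linked kinase (0.997, -1.28). Nearest to Cyr61 were Akr1b8 (0.987, -0.93), the receptor gene Met (0.986, -1.10) and the cell adhesion gene Nectin2 (0.983, -0.74). Nearest to Yap1 were the interferon signalling factor Irf9 (0.971, 0.47), Sipa1 (0.965, 0.47) and Dpcd (0.963, 0.67).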

How the data were processed

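The values analysed are the log2 values of 1 table for 12 arrays, as deposited by the authors. Per the submitters' processing notes the tool was MAS5. For the log base, background correction and normalization nothing is stated (not given in the sources used here), and log2 was taken from the range of 1.09 to 13.89. Of 28826 probe sets, 15209 had 1 gene symbol, 306 several and 13311 none; symbols were updated by Entrez identifier to RefSeq (GRCr8) for 15178. Probe sets with a mean at or under the 40th percentile (4.78) were left out, and the brightest probe set stood for each gene. Group differences came from limma 3.58.1, run in R 4.3.3 (group means over all 12 arrays, eBayes with an intensity trend, 8 residual degrees of freedom), with Benjamini-Hochberg adjustment over 10025 genes within each of 6 comparisons; an adjusted p under 0.05 is a call. The procedure was run on simulated data in which few genes changed, unlike the γ+ group against control. The outcome of that run is not reported here. The number of arrays limits the precision. Alternatives were other scalings, filters, probe set rules, variance models, samples and calls. Promoter sequences are from RefSeq (GRCr8). The genes and lists were chosen with earlier results of these data known. The text names all 8 measured members, in each role the 4 list genes of lowest adjusted p in the γ+ group against control and up to 3 called in each other comparison with control, and the 3 genes of highest r with Yap1, Ctgf and Cyr61. Asap1 and Ptpn14 were added after their values were seen.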

Additional observations from a re-analysis of the deposited data

How the results depend on the processing

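Of 816 fold changes of the 8 genes in the 6 comparisons under the alternatives, 777 stayed on the same side of the threshold, 27 lost the call, 12 gained it and 0 reversed a call; differences near 0 that were not called could change sign, as for Ajuba in the γ+ group against control (-0.10 to 0.00) and Ctgf in the γ- group against control (-0.07 to 0.01). In the γ+ group against control the count of members stayed at 6 or 7, except with a minimum change of 1 log2, where 1 (Ctgf) remained; that minimum also left 1 against the γ- group, 1 against the 23/24 group and 0 in the γ- group against control. Of the wider list it left 10, 9 and 10 in the γ+ comparisons (control, γ-, 23/24) and 0 in both γ- comparisons, and of all genes 907, 868, 902, 2 (γ- against control) and 2 (γ- against 23/24).

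In the γ- group against control 1 member remained with median centring and 1 without the intensity trend, and leaving out single arrays gave 0 to 1. The wider list gave 3 genes with median centring, 8 with array weights and 2 to 3 without single arrays. All genes gave 696 calls as reported, 1745 with array weights, 1369 in the 6 arrays alone, 1363 with no filter, 436 after median centring, 425 with the filter raised to the 60th percentile and 266 to 343 without single arrays. In the 23/24 group against control array weights gave 2 members and 220 genes, quantile normalization 1 gene and leaving out single arrays 0 to 1. Between γ- and 23/24 the wider list gave 8 genes as reported, 5 at the 60th percentile, 14 with array weights, 3 with the replicate block and 0 to 3 without single arrays; all genes gave 812, 2528 with array weights, 1763 in the 6 arrays alone, 1641 with no filter, 488 with the raised filter and 264 to 526 without single arrays. There the centred arrays made 77.9% of calls higher in place of 51.4%. The cause of these shifts was not tested.

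With the replicate number as a block the members called were 6, 2, 0, 4, 5 and 0 in the order of the comparisons (γ+, γ- and 23/24 against control, γ+ against γ-, γ+ against 23/24, γ- against 23/24), as without it. The labels do not say whether the numbers pair the arrays, and no sign of pairing was seen. Deviations of same-numbered arrays correlated at -0.22 to 0.12 over 18 pairs, and 0 of 12 arrays correlated best with its own number. With 3 arrays per group this cannot exclude a shared isolation.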
